A study of Mus musculus with 5 samples.

Results

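The genes described here are enzymes of proximal tubule metabolism, with the transcription factor Hnf4a among them, measured in RNA from sorted cells of the pelvis-kidney junction of the mouse. The list names 34 genes, and 33 of them had a row among the 18044 genes of the deposited table. The remaining gene, Hpd, has no values here and enters only the promoter search. The genes were chosen by name with the comparison of the labels in these libraries already known, so every difference between labels below is given as a description. All embryos were C57BL/6 at E18.5, and no treatment or altered allele is stated for any group. Junctions from all embryos were pooled and digested with collagenase, and cells stained with an antibody to the ion channel HCN3 were sorted by flow cytometry. The 2 libraries labelled HCN3-positive and the 3 labelled HCN3-negative are called positive 1 and 2 and negative 1, 2 and 3. Nothing states that they came from separate pools, so a p-value measures only the spread between these libraries, which may be technical.

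The proximal tubule is the stretch of the nephron that follows the glomerulus and takes back most of the filtered glucose, amino acids and phosphate. It is also a metabolic organ, which makes glucose from lactate and glutamine, breaks down amino acids, makes the precursor of creatine, activates vitamin D and conjugates foreign compounds. Many of its enzymes are shared with the liver, and in both tissues the nuclear receptor HNF4A acts on their genes.

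Expression is given as the normalized count, the number of reads divided by the size factor of the library. Reads assigned to genes ran from 24588864 to 39034478 per library, and the floor for a gene with 0 reads was set at 3 reads, worth a normalized count of 2.23 to 4.23. The floor and the counting intervals cover counting error only. The libraries stood apart in a way that the labels do not give. The fold in the authors' deposited table equals, in 18047 of its 18047 rows, the mean of positive 2, negative 1 and negative 3 over the mean of positive 1 and negative 2 (tolerance 0.01). Positive 1 and negative 2 are here the first set. Positive 2, negative 1 and negative 3 are the second set. The summed level of 7 leukocyte markers was 244466 and 308513 in the first set and 824 to 1807 in the second. Hcn3, the gene of the sorted channel, was counted with 0 reads in positive 1, 60 in positive 2 and 116, 29 and 45 in negative 1, 2 and 3, so its transcript did not follow the labels. The deposited table is named as the comparison of HCN3-negative with HCN3-positive cells, yet its fold groups positive 1 with negative 2. Whether the titles of libraries were exchanged was not tested, and each difference by label below rests on the titles as given. Differences are given by label and also within the sets, as positive 1 against negative 2 and as positive 2 against negative 1 and 3.

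Promoters of 6 of the 10 genes that hold the letters TATAAA are shown as examples, and 1 of them also holds the core of an HNF4A site. RefSeq promoters (GRCm38.p6, the assembly of mm10) were matched by symbol for 33 of the 34 listed genes, with Hpd included and Cyp24a1 missing. The 250 bases before each start were searched on both strands. The letters searched were CAAAGTCCA for the core of an HNF4A site and TATAAA, the letters of a TATA box, which places the start of transcription. An HNF4A core was present before at least 1 start of 1 of the 33 genes (3.03%), against 0.451% of all 27025 genes in the promoter table. TATAAA was present in 10 of the 33 (30.3%), against 14.3% of all genes. It was counted at any place in the window and on either strand, so a match need not be a TATA box. In the sequences, which run in the direction of transcription and end at the base before the start, capitals mark these matches on either strand, and no matches overlap.
Agxt2 (chr15:10358283-10358532, plus strand): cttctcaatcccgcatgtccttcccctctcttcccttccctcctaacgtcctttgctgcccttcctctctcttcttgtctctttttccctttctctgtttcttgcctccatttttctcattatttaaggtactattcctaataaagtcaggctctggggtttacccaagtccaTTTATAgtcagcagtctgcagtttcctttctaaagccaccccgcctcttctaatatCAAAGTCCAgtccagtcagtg
G6pc (chr11:101367466-101367715, plus strand): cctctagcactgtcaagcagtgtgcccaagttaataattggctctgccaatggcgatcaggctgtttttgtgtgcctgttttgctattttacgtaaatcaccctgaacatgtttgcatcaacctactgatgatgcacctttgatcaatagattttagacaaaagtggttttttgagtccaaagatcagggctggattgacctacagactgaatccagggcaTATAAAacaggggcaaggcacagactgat
Miox (chr15:89334223-89334472, plus strand): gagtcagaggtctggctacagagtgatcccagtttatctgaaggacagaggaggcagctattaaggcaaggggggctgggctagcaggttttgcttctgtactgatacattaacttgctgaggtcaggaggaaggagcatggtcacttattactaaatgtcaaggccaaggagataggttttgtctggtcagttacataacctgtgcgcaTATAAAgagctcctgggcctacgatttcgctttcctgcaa
Rdh16 (chr10:127800903-127801152, plus strand): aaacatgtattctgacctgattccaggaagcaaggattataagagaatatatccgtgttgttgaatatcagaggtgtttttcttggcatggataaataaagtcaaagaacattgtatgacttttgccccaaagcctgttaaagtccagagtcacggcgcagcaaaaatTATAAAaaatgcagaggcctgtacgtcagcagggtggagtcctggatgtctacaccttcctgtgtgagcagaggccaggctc
Hgd (chr16:37579903-37580152, plus strand): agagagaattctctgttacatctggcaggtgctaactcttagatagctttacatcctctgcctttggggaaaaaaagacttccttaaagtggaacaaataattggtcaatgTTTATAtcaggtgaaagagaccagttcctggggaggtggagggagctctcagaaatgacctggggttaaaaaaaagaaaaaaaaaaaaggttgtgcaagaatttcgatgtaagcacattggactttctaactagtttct
Cyp2j5 (chr4:96664120-96664369, minus strand): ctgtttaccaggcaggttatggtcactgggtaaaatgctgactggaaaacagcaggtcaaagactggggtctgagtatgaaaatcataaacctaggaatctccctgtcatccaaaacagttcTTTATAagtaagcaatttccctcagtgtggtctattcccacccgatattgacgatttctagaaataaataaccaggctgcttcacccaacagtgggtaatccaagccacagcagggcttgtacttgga

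The HNF4A core of Agxt2 began 21 bases before the start shown, and its TATAAA match, on the other strand, 77 bases before it. The TATAAA match of G6pc, Miox and Rdh16 read in the direction of transcription, 29, 40 and 82 bases before the start. That of Hgd and Cyp2j5 lay on the other strand, 139 and 128 bases before it. Acsm2, Acy3, Ddc and Ggt1, which are not shown, held TATAAA as well. In Acsm2 and Acy3 it read in the direction of transcription, 28 and 30 bases before the start. In Ddc and Ggt1 it lay on the other strand. A match describes letters in the window and says nothing about binding.

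For most of these genes positive 1 stood low and negative 2 high. Negative 2 had the highest value of the 5 libraries for 26 of 33 genes, and positive 1 had the lowest for 23. The median deviation of the 33 genes from their own means, in log2(normalized count + 1), was -1.93 in positive 1, -0.58 in positive 2, 0.12 in negative 1, 1.75 in negative 2 and 1.03 in negative 3. The library with the lowest level and the library with the highest level thus both belonged to the first set. The genes took 0.0580%, 0.0582%, 0.0783%, 0.195% and 0.0987% of all gene reads, in the same order of libraries. Without Gatm, the most abundant of them, the shares were 0.0275%, 0.0540%, 0.0719%, 0.128% and 0.0866%. In bulk RNA, fewer cells of a type and less RNA per cell cannot be told apart.

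**Figure D1:**
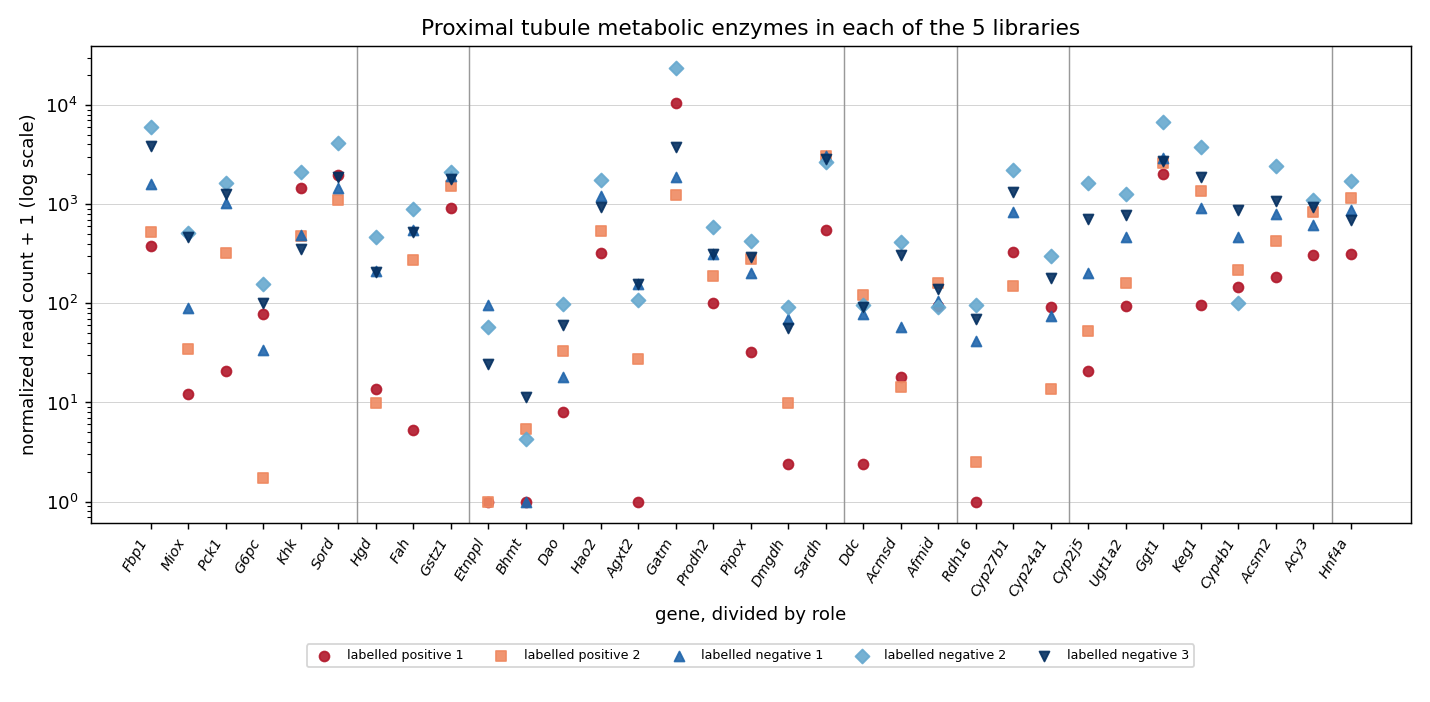
Normalized count plus 1 (vertical axis, log scale) of the 33 genes (horizontal axis, ordered by role), with 1 point per library, in red and orange for libraries labelled HCN3-positive and blue shades for those labelled HCN3-negative. Negative 2 is the highest point for 26 genes and positive 1 the lowest for 23, while Khk and Gatm are high in both of these libraries.

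By label, 18 of the 33 genes had both positive libraries below all 3 negative ones, where 5.44% of all 16579 genes with a mean normalized count of at least 5 did. The other 15 had groups that overlapped, and 0 had both positive libraries above. Leaving out 1 library at a time, this count was 18 to 25, against 8.28% to 30.3% of all genes. Bhmt had a mean under 5 and was not tested. Of the 32 genes tested, 30 had a log2 fold change of the positive over the negative libraries below 0, against 52.5% of all genes tested. Their median was -2.28, against -0.03 for all genes, and it was -1.41 without positive 1, -1.57 in edgeR and -1.58 in DESeq2. Leaving out 1 library moved the fold change of 21 of the 32 by over 1.5 times. In limma, 0 of the 32 passed an adjusted p of 0.05, as did 0% of all genes tested. An unadjusted p under 0.05 was found in limma for 14 of the 32 and for 157 of all 16579 genes. In edgeR also 0 of the 32 and 0 of all genes passed, and 12 of the 32 and 165 of all 16579 genes had an unadjusted p under 0.05. DESeq2 called 6 genes of the list lower, where it called 0.0552% of all genes lower. They were Hgd, Fbp1, Rdh16, Cyp2j5, Etnppl and Ugt1a2. Nothing is read from these counts, since the list was named with the contrast known.

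Within the sets, positive 1 was below negative 2 for 31 of the 33 genes, against 50.9% of all genes tested. The exceptions were Cyp4b1 and Afmid. Positive 2 was below both negative 1 and negative 3 for 23 of the 33, against 33.9% of all genes tested. The exceptions were Khk, Keg1, Bhmt, Dao, Ddc, Afmid, Pipox, Sardh, Hnf4a and Acy3. Both conditions held for 22 of the 33, against 16.5% of all genes tested. With the set as a block in the fit, the median log2 fold change of the 32 was -2.24, against -0.04 for all genes, and 0 passed in limma.

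**Figure D2:**
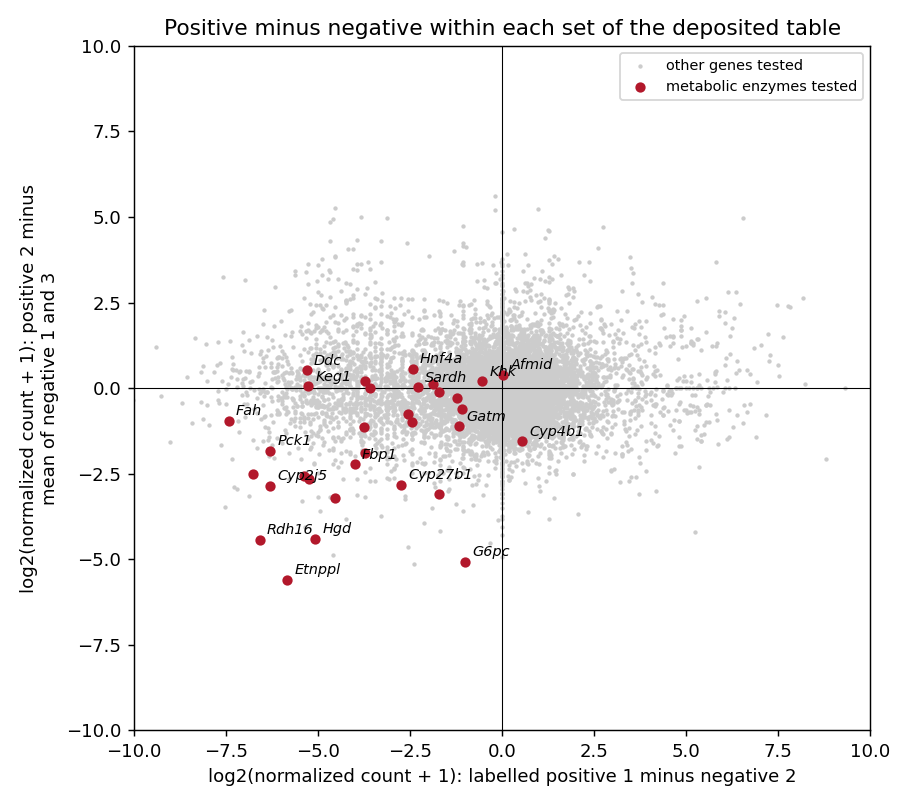
Difference in log2(normalized count + 1) of positive 1 from negative 2 (horizontal axis) and of positive 2 from the mean of negative 1 and 3 (vertical axis), for the 32 genes tested (red) and all other genes tested (grey), with 1 gene outside the plotted range. Of all 33 genes in the table, 22 were lower in the positive library within both sets, whereas Ddc and Hnf4a lie left of 0 and above 0 on the vertical axis.

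Glucose, fructose and inositol metabolism was represented by 6 enzymes, of which 3 had groups that did not overlap. Beside this count and those of the other roles below, 5.44% of all genes tested were lower without overlap. Fbp1 (chromosome 13, 62864753 to 62888282, minus strand), the fructose bisphosphatase of glucose synthesis, had normalized counts of 374 and 526 against 1579.7, 6009 and 3826, in the order, used throughout, of positive 1 and 2 against negative 1, 2 and 3. Its means were 449.7 ± 108 (SD, n = 2) and 3805 ± 2215 (SD, n = 3), and the log2 fold change was -2.90 (SE 0.62). Both positive libraries lay clearly under the lowest negative one. Pck1 (chromosome 2, 173153048 to 173159273, plus strand), the carboxykinase that starts glucose synthesis from oxaloacetate, was at 19.7 and 321 against 1033, 1637 and 1273, a log2 fold change of -3.98 (SE 1.19). That fold change was -2.004 without positive 1 and -5.96 without positive 2. Its groups did not overlap, but positive 1 was 82.95-fold under negative 2, while positive 2 was 3.59-fold under the mean of negative 1 and 3. Miox (chromosome 15, 89334398 to 89337015, plus strand), the oxygenase that opens the ring of inositol and is a known proximal tubule enzyme, was at 11.3 and 33.4 against 88.2, 507 and 471, a log2 fold change of -3.76 (SE 1.10). That fold change was -3.01 without positive 1, -4.50 without positive 2 and -4.57 without negative 1. Negative 1 stood well under the other negative libraries but above both positive ones.

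G6pc (chromosome 11, 101367561 to 101377903, plus strand), the phosphatase that releases free glucose, was at 77.5 and 0.742 against 32.97, 156 and 100.5, from 55 and 1 reads against 37, 141 and 108. Positive 1 stood inside the negative range and positive 2 held a single read, so the groups overlapped although each positive library was under the negative ones of its set. Sord (chromosome 2, 122234749 to 122265340, plus strand), which turns sorbitol into fructose, was at 1958 and 1095 against 1470.1, 4172 and 1889, again with positive 2 the lowest and negative 2 the highest. Khk (chromosome 5, 30921431 to 30931248, plus strand), the fructokinase, was at 1455 and 473 against 485, 2128 and 349.8. Its high libraries were those of the first set under either label, and its log2 fold change of 0.22 (SE 0.95) was -0.12 with the set as a block.

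Tyrosine breakdown was represented by 3 consecutive enzymes, and the groups did not overlap for any of them. Hgd (chromosome 16, 37580153 to 37632020, plus strand), which opens the ring of homogentisate, was at 12.7 and 8.90 against 212, 464 and 205, with 9 and 12 reads in the positive libraries. Its means were 10.8 ± 2.68 (SD, n = 2) and 294 ± 148 (SD, n = 3), and its log2 fold change was -4.55 (SE 0.78). It was low in both positive libraries alike, 36.6-fold under negative 2 in the first set and 23.4-fold under the negative mean in the second. Gstz1 (chromosome 12, 87147165 to 87164723, plus strand), the isomerase of the next step, was at 909 and 1524 against 1919, 2118 and 1806, a much smaller log2 fold change of -0.72 (SE 0.32). Fah (chromosome 7, 84585159 to 84606722, minus strand), the hydrolase that ends the pathway, was at 4.23 and 275 against 546, 898 and 519, the first value from 3 reads. In the first set the fold was 212 (95% exact counting interval 72.4 to 1032) and in the second 1.94, and its log2 fold change of -4.06 (SE 1.70) was -1.20 without positive 1.

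The steps of this pathway did not keep their proportion across libraries. Per kilobase of transcript, the level of Fah divided by that of Hgd was 2.77, 2.08 and 2.72 in the negative libraries, 0.358 in positive 1 and 33.2 in positive 2. The negative libraries lay close together, and the positive ones lay on opposite sides of them, on the few reads of Hgd given above and, in positive 1, the few reads of Fah. Outside the list, 4 partners of phenylalanine and tyrosine breakdown were in the table, with 2 below 0, 2 above, 0 called in limma and a median log2 fold change of 0.06. The most abundant of them, Qdpr, which regenerates the cofactor of phenylalanine hydroxylase, was at 2888 and 3137 against 3041, 3934 and 3134, nearly level in all libraries.

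Amino acid, choline, glycine and creatine metabolism held 10 genes, 5 of them with groups that did not overlap. Gatm (chromosome 2, 122594467 to 122611303, minus strand), which makes the precursor of creatine, was the most abundant gene of the list, at 10592 and 1222 against 1860.3, 23826 and 3766. Like Khk it was high in the first set under either label, and in each set the positive library was under the negative ones, by 2.25-fold in the first and 2.30-fold in the second. Its log2 fold change of -0.61 (SE 1.40) was 0.94 without positive 2 and 0.44 without negative 2, so its direction by label rested on which libraries entered. Dmgdh (chromosome 13, 93674433 to 93752833, plus strand), the dimethylglycine dehydrogenase of choline breakdown, was at 1.41 and 8.90 against 68.6, 91.01 and 55.8, with 1 and 12 reads in the positive libraries. Its log2 fold change was -3.87 (SE 1.07), -2.85 without positive 1 and -4.89 without positive 2, and the groups did not overlap. Sardh (chromosome 2, 27188393 to 27248337, minus strand), which turns the product of Dmgdh into glycine, was at 544 and 3028 against 3072, 2654 and 2865. For Sardh positive 1 alone stood low, and without it the log2 fold change of -1.15 (SE 0.73) was 0.08.

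Per kilobase, Sardh stood 255-fold and 225-fold over Dmgdh in positive 1 and 2 and 29.6-fold, 19.3-fold and 33.97-fold over it in the negative libraries, the value of positive 1 resting on a single read of Dmgdh. These consecutive steps were thus unequal too. Bhmt (chromosome 13, 93616675 to 93637961, minus strand), which makes the dimethylglycine that Dmgdh uses and lies 36471 bases from that gene, had 0 and 6 reads against 0, 3 and 11 and was at the limit of detection. Bhmt, Bhmt2 and other related copies, among them the Ugt1a, Cyp2j, Cyp4, Acsm, Rdh16 and Keg1 families, can hold stretches of alike sequence. Reads without a unique alignment and ambiguous reads were left out, so the levels of those members are uncertain. Counting by strand is not stated, so reads of an antisense neighbour cannot be told apart.

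Hao2 (chromosome 3, 98874521 to 98893239, minus strand), a peroxisomal oxidase of hydroxy acids, was at 317 and 540.0 against 1218, 1740.2 and 936, a log2 fold change of -1.60 (SE 0.44). Prodh2, the dehydrogenase of hydroxyproline, was at 98.7 and 186 against 314, 589 and 312. For both, the groups did not overlap and positive 1 was the lowest library. Agxt2 (chromosome 15, 10358532 to 10410153, plus strand), a mitochondrial aminotransferase that breaks down dimethylarginines, was at 0 and 26.7 against 157, 108 and 155. With 0 reads, positive 1 was at least 25.5-fold lower than negative 2 against the floor of 3 reads in the library, and positive 2 was 5.84-fold under the mean of negative 1 and 3. Etnppl (chromosome 3, 130617448 to 130637521, plus strand), which breaks down phosphoethanolamine, was at 0 and 0 against 95.3, 56.6 and 23.3. With 0 reads in both positive libraries, they were at least 18.1-fold lower than the negative mean, against the floor of 3 reads in each library.

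Pipox, which oxidizes pipecolate and sarcosine, was at 31.01 and 279.7 against 202, 426 and 289, and Dao, the oxidase of D-amino acids, was at 7.05 and 31.9 against 16.9, 96.6 and 59.5. In both, positive 1 was the lowest and positive 2 stood inside the negative range. Outside the list, 9 partners of choline, glycine and creatine metabolism were tested, with 7 below 0, 2 above, 0 called in limma and a median log2 fold change of -0.41. The most abundant, Mat2a, which makes the methyl donor S-adenosylmethionine in most tissues, was at 14202 and 14679.6 against 15289.9, 14076 and 23089.7, with overlapping groups. For the neighbouring gluconeogenesis and fructose partners, 7 of 9 were below 0, 0 were called in limma, and the median was -0.27.

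Tryptophan and amine metabolism held 3 genes with unlike values. Acmsd (chromosome 1, 127729413 to 127767978, plus strand), which diverts tryptophan from NAD synthesis, was at 16.9 and 13.4 against 56.1, 413 and 305, a log2 fold change of -3.59 (SE 1.11). That fold change was -4.47 without negative 1. Like Hgd it was low in both positive libraries, 24.4-fold and 13.5-fold within the sets. Afmid (chromosome 11, 117825924 to 117839908, plus strand), the formamidase that acts earlier in the same pathway, was at 93.03 and 159 against 104, 91.01 and 139.5, its groups overlapped, and its log2 fold change was 0.15 (SE 0.66). Ddc (chromosome 11, 11814101 to 11898144, minus strand), the decarboxylase that makes dopamine in the proximal tubule, was at 1.41 and 121 against 76.6, 94.3 and 91.2, the first value from 1 read. Only positive 1 stood low among these 5 libraries, and without it the log2 fold change of -2.36 (SE 1.77) was 0.47. Outside the list, 4 of 7 tryptophan and kynurenine partners tested were below 0, 3 were above and 0 were called in limma, with a median of -0.76. Of 10 genes of fatty acid oxidation, the main fuel pathway of the tubule, 8 were below 0, 0 were called in limma, and the median was -0.19.

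Vitamin D and retinoid metabolism held 3 genes. Cyp27b1 (chromosome 10, 127048250 to 127053006, plus strand), the hydroxylase that activates vitamin D, was at 329.8 and 147 against 827, 2202 and 1330.2, a log2 fold change of -2.60 (SE 0.60). Cyp24a1 (chromosome 2, 170482708 to 170497145, minus strand), the hydroxylase that inactivates it, was at 90.2 and 12.6 against 73.1, 299.7 and 179. Positive 2 was the lowest library for both, unlike most of the list, and for Cyp24a1 positive 1 stood inside the negative range. Per kilobase, Cyp27b1 exceeded Cyp24a1 in every library, by 5.47, 17.4, 16.9, 10.99 and 11.1 times in the order positive 1 and 2 and negative 1, 2 and 3. Rdh16 (chromosome 10, 127801152 to 127846565, plus strand), a retinol dehydrogenase, was at 0 and 1.48 against 40.98, 95.4 and 67.9, from 0 and 2 reads against 46, 86 and 73. The ratio of the negative over the positive libraries was 68.1 (95% exact counting interval 18.6 to 566), on 2 reads in all in the positive ones. Outside the list, 3 of 5 vitamin D partners were below 0, 2 were above and 0 were called in limma.

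Foreign compounds, conjugation and glutathione were handled by 7 genes, 4 of them with groups that did not overlap. Cyp2j5 (chromosome 4, 96628773 to 96664154, minus strand), a renal cytochrome P450, was at 19.7 and 51.2 against 201, 1641 and 706, a log2 fold change of -4.23 (SE 1.06). That fold change was -3.56 without positive 1, -4.90 without positive 2, -5.03 without negative 1 and -3.52 without negative 2. Ugt1a2 (chromosome 1, 88200601 to 88218997, plus strand), a glucuronosyltransferase, was at 93.03 and 161 against 464, 1252 and 780.4, a log2 fold change of -2.64 (SE 0.60). Both positive libraries stood under all negative ones in each, with negative 2 the highest. Acsm2 (chromosome 7, 119554340 to 119600690, plus strand), which activates medium-chain acids for conjugation with glycine, was at 182 and 422 against 804, 2443 and 1077, a log2 fold change of -2.21 (SE 0.65). That fold change was -1.60 without positive 1 and -2.81 without positive 2. Ggt1 (chromosome 10, 75561604 to 75586200, plus strand), the brush border enzyme that cleaves glutathione, was at 2019 and 2608 against 2931, 6682 and 2716. The groups of Ggt1 did not overlap, but positive 2 was only 1.08-fold under the mean of negative 1 and 3.

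Keg1 (chromosome 19, 12695786 to 12719902, plus strand), a kidney gene of the glycine acyltransferase family, was at 95.9 and 1366 against 919, 3743 and 1861. It was 39.1-fold lower in positive 1 than in negative 2, while positive 2 stood between negative 1 and negative 3. Acy3, an aminoacylase that acts on mercapturates, was at 303 and 828 against 621, 1109.8 and 943, also with positive 1 alone under the negative range. Cyp4b1 (chromosome 4, 115624725 to 115647723, minus strand), a cytochrome P450, was at 145 and 218 against 465, 98.8 and 881. It departed from the order of the list, with negative 2 the lowest library and negative 3 the highest.

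Hnf4a (chromosome 2, 163506808 to 163572910, plus strand), the factor that acts on many of these genes, was at 316 and 1151 against 863, 1702 and 698. Positive 1 was the lowest library and negative 2 the highest, as for most of the enzymes, but positive 2 was the second highest, and the log2 fold change of -0.74 (SE 0.71) was 0.19 without positive 1. Outside the list, 3 of 8 proximal tubule transcription factors were below 0, 5 were above and 0 were called in limma, with a median log2 fold change of 0.26.

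Per kilobase of transcript, the level averaged over the 5 libraries ran from 3455 normalized counts for Gatm, through 1665 for Fbp1 and 1565 for Ggt1, to 7.84 for Etnppl and 1.45 for Bhmt. The place of Gatm at the top depended on the library. Per kilobase, Gatm divided by Fbp1 was 17.6 and 2.45 in positive 1 and negative 2, and 1.44, 0.729 and 0.609 in positive 2, negative 1 and negative 3. The ratio was high in the first set and low in the second.

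**Figure D3:**
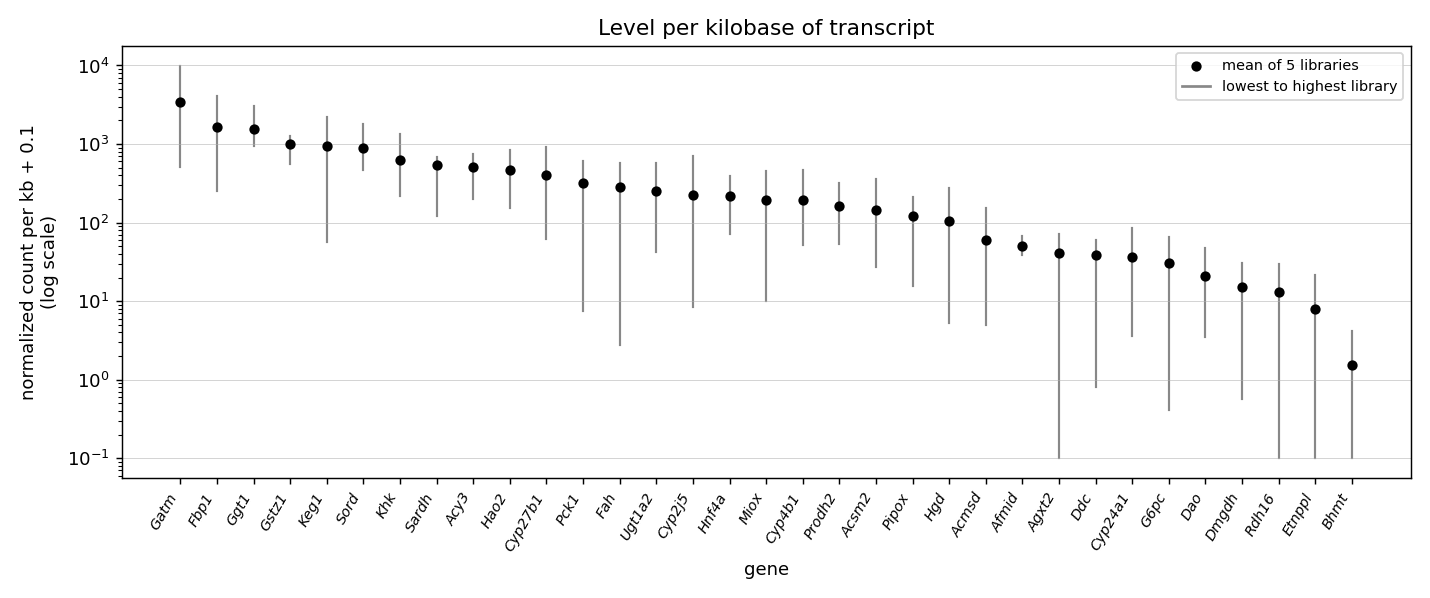
Normalized count per kilobase of transcript (vertical axis, log scale, with a small constant added so that 0 can be drawn) of the 33 genes, ordered by their mean. Points are means of the 5 libraries and lines run from the lowest to the highest library; Gatm has the highest mean and Bhmt the lowest, and the lines of Agxt2, Rdh16, Etnppl and Bhmt reach a library with 0 reads.

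The authors' deposited table compares the second set with the first, which crosses the titles as given, although it is named as a comparison of the HCN3 groups. Of the 33 genes, 2 had an adjusted p under 0.05 in the authors' deposited table, against 14.2% of the 18044 genes. They were Khk (adjusted p of 4.57e-05) and Gatm (adjusted p of 0.00904), both higher in the first set, 4.11-fold and 7.54-fold by the authors' deposited table. By the fold in the authors' deposited table, the mean of positive 1 and negative 2 exceeded that of the other libraries for 22 genes and was under it for 11. That mean joins the library that was lowest for 23 genes with the one that was highest for 26. For Fah the authors' deposited table gave a fold of 1.01 and an adjusted p of 0.993, since the low positive 1 was averaged with the high negative 2. That comparison shares its libraries with the comparison of the labels.

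Markers of cell types were read beside these results. Of 10 markers of proximal tubule transport and endocytosis, 9 were below 0 by label, with a median log2 fold change of -1.64. Of these markers 7 were lower without overlap, against 5.44% of all genes tested. Their summed level was 4463 and 6711 against 9247, 28473 and 15486, the same order of libraries as the median deviation of the enzymes. The summed level of the enzymes themselves was 20116 and 16846 against 22817, 69546 and 30687, with positive 2 the lowest and Gatm included. Slc34a1, the phosphate carrier of the brush border, was at 1355 and 2373 against 2982, 12314 and 6098, and Lrp2, the endocytic receptor megalin, at 1567 and 2048 against 2545, 7270.5 and 3762. The part that the number of proximal tubule cells had in the enzyme values was not tested.

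Since the liver shares these enzymes, hepatocyte markers were read as well. Of the 10 listed, 9 were in the table and 8 were tested, with 5 below 0, 3 above and a median of -0.40, and their summed level was 1973 and 2014 against 2130.3, 2681 and 1513. Most of it was Afp, at 1873 and 1517 against 1791, 2227 and 1197, and Fgb, a fibrinogen chain, was at 2.82 and 242 against 161, 69.9 and 98.6. The 5 hepatocyte markers below 0, in the direction of most of the enzymes, had log2 fold changes of -1.98 to -0.11. Alb, the albumin gene, named after its values were seen, was at 0 and 15.6 against 4.45, 4.44 and 1.86, low in all 5 libraries. The part of hepatocyte RNA in the enzyme values was not tested. Collecting duct markers ran the other way, with 8 of 8 above 0, a median of 1.56 and a summed level of 66299 and 22667 against 15240, 20844 and 8906. Aqp2, the water channel of the principal cell, was at 34676 and 3248 against 1033, 4826 and 2339. Loop of Henle and distal tubule markers were also above 0, for 7 of the 7 tested, with a median of 0.52. Their summed level was 44070 and 22354 against 24052, 23292 and 18502. Podocyte markers were below 0 for 6 of 6, with a median of -1.07 and a summed level of 12429.9 and 36986 against 48978, 6662 and 307419, negative 3 standing far above the rest. Endothelium markers were below 0 for 5 of 5, with a median of -1.18, and erythroid markers for 4 of 5, with a median of -2.70, and both had their highest summed level in negative 3. Of 8 immediate early genes, which respond to cell handling, 8 were below 0 and 7 were lower without overlap, against 5.44% of all genes tested. Their median was -2.02 and their summed level 27201 and 10264 against 50909, 106086 and 61286. Egr1, an early growth response factor, was at 1109 and 1012 against 9420.2, 6953 and 8665 and was the 1 gene of that list called, by DESeq2 (adjusted p of 2.37e-21, against 0.713 in limma). The part of these cell types and of cell handling in the enzyme values was not tested.

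**Figure D4:**
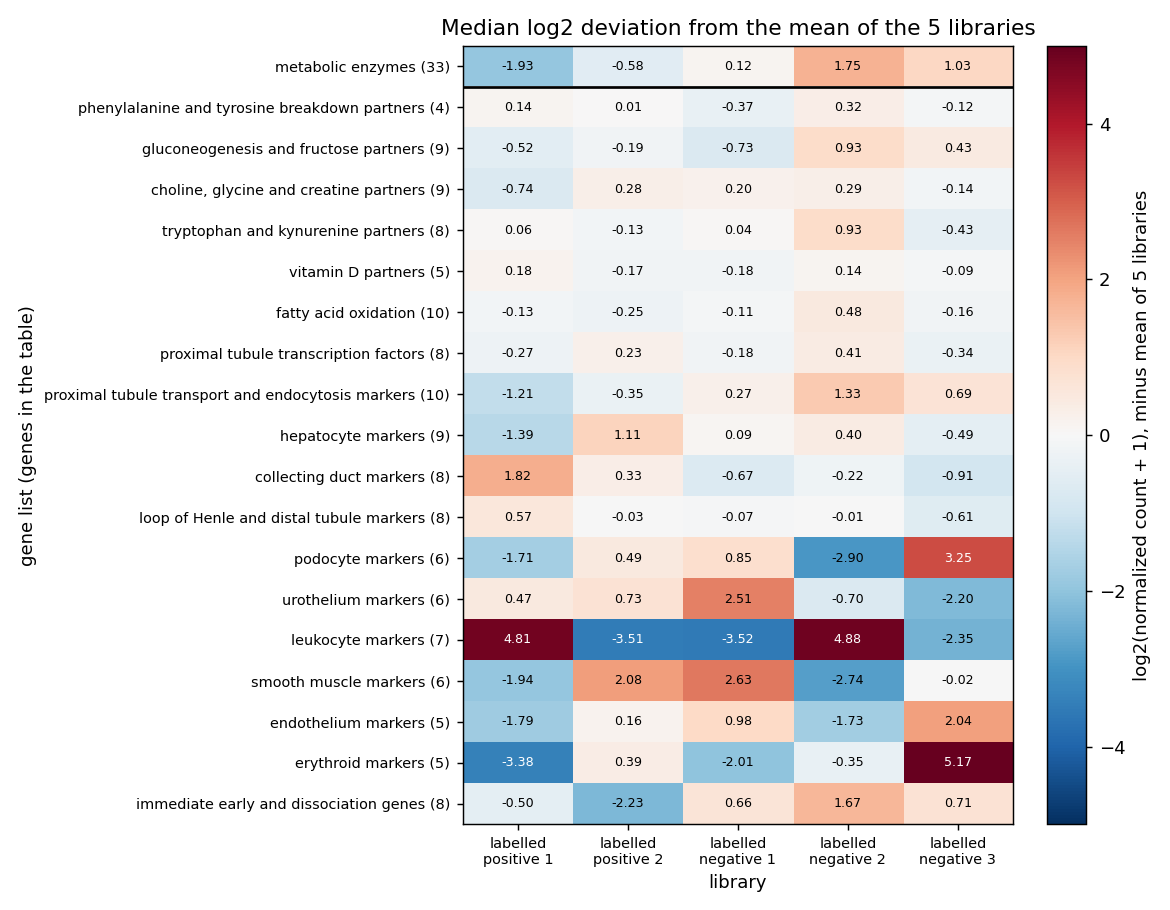
Median deviation of each list from the means of its genes, in log2(normalized count + 1), shown as a coloured cell with its value for each list (rows, with the number of genes in the table) in each library (columns), blue below and red above 0. The enzymes and the proximal tubule transport and endocytosis markers both run from positive 1 as the lowest to negative 2 as the highest library, and the collecting duct markers are highest in positive 1.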

How the data were processed

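RNA of 5 libraries of sorted cells was sequenced after Clontech cDNA synthesis and Nextera XT library preparation, per the labels' protocols. For alignment and counting, the submitters' processing notes list TopHat2 2.0.11, the build mm10 and HTSeq 0.6.1p2. They also list DESeq 1.18.0 and, for the raw reads, cutadapt 1.8, Trim Galore 0.40, FastQC 0.11.2 and bcl2fastq 2.17. The annotation behind the counts was not given in the sources used here. A single table of signal values was deposited by the authors, which are read counts per gene divided by a size factor per library. It also holds, per the file headers, the authors' fold change as a ratio, its log2 value, and the authors' p-value with its adjusted form, for a comparison whose groups were found by matching its fold to means of the libraries.

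Whole reads were recovered from the steps of the values, of which 100% above 0 came out whole (tolerance 0.01). Left out were 3 summary rows, the reads with no unique alignment (13.5% to 18.7%), the ambiguous ones (0.792% to 2.32%) and those in no gene (8.58% to 14.03%). Libraries were grouped by their titles. The main test was limma 3.58.1 (R 4.3.3, with trend) on log2(normalized count + 1) over the 16579 genes whose mean reached 5, and p-values were adjusted after Benjamini and Hochberg. The 1 added before the log shrinks the change of low genes. Etnppl was at -5.68 on that scale and at -8.28 in DESeq2. Where the positive libraries were uneven, the difference of mean logs could instead be the larger one. Fah was at -4.06 on that scale and at -2.23 in DESeq2. Alternatives were edgeR 4.0.16 and DESeq2 1.42.0 on the recovered reads, other pseudocounts, filters and scaling, blocks, and each library left out. The limma fit, but not the other steps, was tested on simulated data. The simulated libraries held no difference between the sets, so that test does not cover libraries that stand apart as these did. Lengths and positions come from GENCODE (GRCm38). The members and lists were chosen with earlier results of these data known. Named are all members in the table and, of other lists, genes among the 2 with the highest mean and any called, with exceptions said where they occur. Some genes and a motif are not reported here.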

Additional observations from a re-analysis of the deposited data

How the results depend on the processing

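By label, limma called 0 of 16579 genes and 0 of the 32 enzymes tested at an adjusted p of 0.05, where 157 and 14 had an unadjusted p under 0.05. DESeq2 called 10 genes, 6 of them enzymes, and the cause of this difference was not tested. Leaving out 1 library at a time, the median log2 fold change of the enzymes ran from -2.68 without positive 2 to -1.41 without positive 1, from -2.28 with all libraries, where edgeR gave -1.57 and DESeq2 -1.58. The fold change of Khk, 0.22, was -0.0589 in edgeR, -0.0346 in DESeq2 and -0.12 with the set as a block. Leaving out 1 library at a time, some directions turned (Sardh to 0.0831 without positive 1), with ranges of -0.59 to 1.03 for Khk, -5.19 to 0.47 for Ddc, -2.39 to 0.08 for Sardh, -1.67 to 0.19 for Hnf4a, -0.24 to 0.53 for Afmid and -2.17 to 0.94 for Gatm. Pseudocounts of 0.5 and 5, no filter, a mean minimum of 20 and TMM scaling turned the direction of 0 enzymes.

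With the replicate number as a block, which leaves out negative 3, 0 genes and 0 enzymes passed in limma, the median was -2.33, and Khk was at -0.29. Deviations of same-numbered libraries correlated at -0.53 for number 1 and -0.69 for number 2 over 16579 genes, so the numbers were not taken to pair the libraries. The 2 positive libraries deviate from their own mean in mirror image, so their correlations differ only in sign. Positive 1 with negative 2 gave 0.69, and positive 2 with negative 1 gave 0.53. With 2 libraries labelled positive, and 0 to 3 reads for 7 of the 33 genes in positive 1, depth limits the folds of those genes, and a difference that missed the threshold is not shown to be absent.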
